A study of Mus musculus with 60 samples.

Results

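Mest, Copg2, Cep41 and Klf14 are 4 neighbouring genes on mouse chromosome 6 that belong to an imprinted region. They were read from every probe set whose platform gene symbol was exactly one of these names, which gave 7 of 45137 probe sets, 3 on the MOE430A array and 4 on the MOE430B array. Of the 7, 6 were detected on enough arrays to be fitted (above a floor on 5 or more of 30), in a fit of 13181 genes. The 4 genes were chosen by their differences in log2 signal between these same strains, so these differences are given as a description, with a standard error and no test. The cells were undifferentiated mouse embryonal carcinoma cells, the stem cells of teratocarcinomas, whose source the labels give as a male C3H embryo. The groups were CL6G26, CL6G36, CL6G45 and CL6G52, which are sublines of P19CL6, then P19CL6, a subclone of P19, and P19 itself, with 5 biological replicates each on both array types and 60 arrays in all. No group carries a transgene or a treatment in the labels, each subline is known only by its name, and the purpose of the sublines is not stated. The 4 comparisons of a subline with P19CL6 share the P19CL6 arrays, and the comparison of P19CL6 with P19 uses the same ones again.

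Imprinting marks one parental copy of a gene in the germ line, so that later only the copy from the father or from the mother is used. Mest, which encodes a putative enzyme of the alpha/beta hydrolase family, is used from the paternal copy, and the promoter of the silent maternal copy is methylated. Klf14, an intronless gene for a zinc finger transcription factor, is used from the maternal copy, and Copg2, which encodes a gamma subunit of the COPI coat of Golgi vesicles, shows a maternal bias in some mouse tissues. Cep41 encodes a centrosomal and ciliary protein needed for glutamylation of tubulin in cilia, and human mutations in it cause Joubert syndrome. The array signal sums the transcripts of both parental copies and does not tell them apart.

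In the RefSeq order of genes that have a probe set, the genes run Cep41, Mest, Copg2, Klf14, with Tsga13 and 4930412F09Rik between Copg2 and Klf14. Cep41 and Mest are adjacent in this order, lie on opposite strands and are read away from each other from separate start sites, whereas Mest and Copg2 are read towards each other. The promoter windows of the 3 genes with the clearest signal are shown because Mest and Cep41, adjacent in this order, differed in opposite directions in CL6G26. Each holds 300 bases around the transcript start, 50 of them after it, 5′ to 3′ on the strand of the gene, from RefSeq on the GRCm38.p6 build. Mest lies at chr6:30737800-30738099 on the plus strand, Cep41 at chr6:30693700-30693999 on the minus strand and Copg2 at chr6:30896745-30897044 on the minus strand. Capitals mark TGCCGC on either strand (GCGGCA when it lies on the other strand), the hexamer bound by the imprint-protecting zinc finger protein Zfp57 when methylated.
Mest: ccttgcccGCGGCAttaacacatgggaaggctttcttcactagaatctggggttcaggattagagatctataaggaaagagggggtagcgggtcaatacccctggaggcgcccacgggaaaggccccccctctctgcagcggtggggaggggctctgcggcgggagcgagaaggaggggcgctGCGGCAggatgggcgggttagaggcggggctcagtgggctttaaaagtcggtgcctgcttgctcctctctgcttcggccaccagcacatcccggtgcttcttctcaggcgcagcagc
Cep41: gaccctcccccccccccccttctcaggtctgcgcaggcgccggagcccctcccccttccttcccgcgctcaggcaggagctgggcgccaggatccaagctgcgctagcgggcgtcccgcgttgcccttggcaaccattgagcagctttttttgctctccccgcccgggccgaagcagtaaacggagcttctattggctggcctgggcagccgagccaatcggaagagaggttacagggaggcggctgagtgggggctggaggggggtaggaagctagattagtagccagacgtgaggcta
Copg2: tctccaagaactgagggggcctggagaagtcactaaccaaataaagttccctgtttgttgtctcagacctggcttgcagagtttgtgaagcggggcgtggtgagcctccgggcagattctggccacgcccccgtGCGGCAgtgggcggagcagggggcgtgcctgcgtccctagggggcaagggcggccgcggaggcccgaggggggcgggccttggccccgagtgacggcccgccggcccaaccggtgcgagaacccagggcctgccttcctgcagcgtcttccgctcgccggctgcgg
The Mest window held 2 matches, at -242 and -67 relative to the transcript start, Copg2 held 1, at -116, and Cep41 held none. Of 32851 promoter windows of the same length, 11.61% held at least 1 match and 1.531% at least 2. The Mest window had 17 CpG dinucleotides, Cep41 19 and Copg2 25, against a median of 7 and an upper quartile of 20 over all windows. A second Mest window, upstream at chr6:30733256-30733555, had 8 CpG and no match. A match is a run of letters and says nothing of binding or methylation in these cells.

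The strains were first checked against markers of their cell type. Pou5f1, Nanog, Sox2, Utf1, Tdgf1 and Lin28a, genes of pluripotent cells, lay above the floor on all 30 MOE430A arrays, and Dppa5a did so on 11. Of 20 markers of fibroblasts, neural cells, endoderm and cardiac muscle, Col1a2, Tubb3, Stmn2 and Foxa2 were above the floor on 29 or 30 arrays and the others on 7 or fewer. On both array types, 3 arrays correlated better on average with another strain than with their own: P19 replicates 4 and 5 with P19CL6, and CL6G52 replicate 1 with CL6G45. On MOE430A, P19CL6 replicates 1, 3 and 4 had P19 replicate 4 as their closest single array, and replicate 5 had P19 replicate 5. On MOE430B, P19CL6 replicates 1 and 3 again had P19 replicate 4, and replicate 2 had P19 replicate 5. All of these P19CL6 arrays correlated better on average with their own strain. Before normalization the median signal of an array was 30.2 to 53.4 (MOE430A) or 10.6 to 16.5 (MOE430B). Precision is limited by there being 5 arrays per strain and type.

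Mest was brightest in CL6G26, clearly dimmer in CL6G36 and CL6G45 than in P19CL6, and close to P19CL6 in CL6G52. Its single probe set, 1423294_at on MOE430A, read 10.89, 10.93, 10.90, 10.91 and 10.94 in CL6G26, against 9.83, 9.78, 10.01, 9.90 and 9.78 in P19CL6 (log2 signal, replicates 1 to 5). All 5 CL6G26 arrays lay above every other array of the series, of which the highest was P19 replicate 3 at 10.24. The mean was 10.91 ± 0.02 in CL6G26 and 9.86 ± 0.10 in P19CL6 (SD, n = 5 each), a difference of 1.05 ± 0.10 (log2, SE of the fit), or 2.07-fold. In cultures like these, a higher share of cells with the transcript and more transcript per cell cannot be told apart.

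CL6G36 and CL6G45 went the other way. CL6G36 read 9.56, 9.51, 9.45, 9.53 and 9.46, and its mean of 9.50 ± 0.05 was 1.28-fold below P19CL6 (a log2 difference of -0.36 ± 0.10). CL6G45 read 9.35, 9.21, 9.35, 9.50 and 9.43, with a mean of 9.37 ± 0.11, 1.41-fold below P19CL6 (a log2 difference of -0.49 ± 0.10). Neither subline overlapped P19CL6, while the 2 sublines overlapped each other. CL6G52 read 9.25, 10.09, 10.01, 9.98 and 10.05, so that replicate 1, the array that resembles CL6G45 over all genes, lay in the CL6G45 range and the other 4 lay at the top of the P19CL6 range or above it. The CL6G52 difference was 0.02 ± 0.10 with all 5 arrays and 0.17 without replicate 1. P19 read 10.07, 10.07, 10.24, 9.92 and 9.99, and the P19CL6 mean lay 0.20 ± 0.10 below the P19 mean of 10.06 ± 0.12, with overlapping arrays. From high to low the order was CL6G26, P19, CL6G52, P19CL6, CL6G36 and CL6G45, in which the steps from CL6G26 to P19 and from P19CL6 to CL6G36 were free of overlap.

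**Figure D1:**
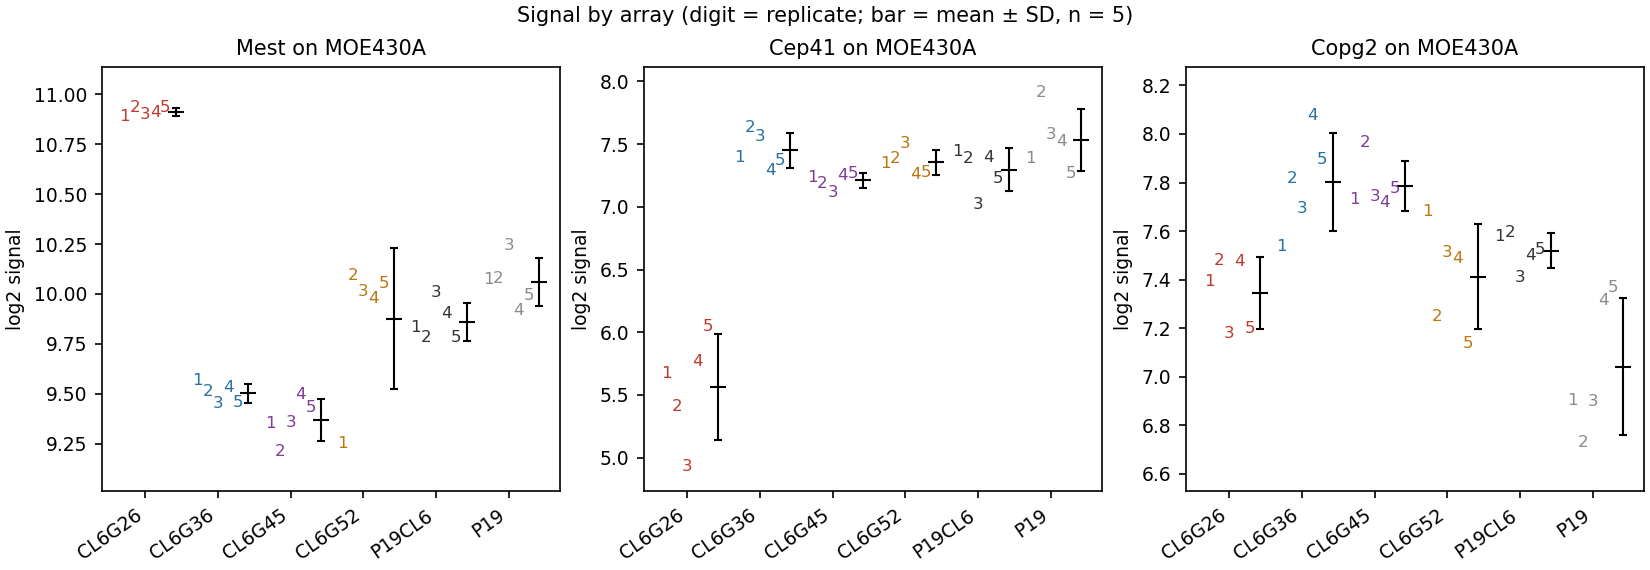
Log2 signal of Mest, Cep41 and Copg2 on each MOE430A array by strain; digits are replicates and bars the mean ± SD of 5 arrays. CL6G26 is highest for Mest (10.91 ± 0.02) and lowest for Cep41 (5.56 ± 0.42), Mest of CL6G52 replicate 1 sits at 9.25, and Copg2 of P19 replicates 4 and 5 sits above the other P19 arrays.

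Cep41 was lower in CL6G26 than in any other strain on all 3 of its measurable probe sets. On MOE430A, 1419686_at read 5.67, 5.41, 4.93, 5.77 and 6.04 in CL6G26, against 7.44, 7.38, 7.02, 7.39 and 7.23 in P19CL6. Means were 5.56 ± 0.42 in CL6G26 and 7.29 ± 0.17 in P19CL6, a log2 difference of -1.73 ± 0.14, or 3.32-fold lower. The highest CL6G26 array lay 0.98 below the lowest P19CL6 array, although CL6G26 also had the widest spread of the 6 strains. The other strains followed closely on each other, with means of 7.45 ± 0.14 in CL6G36, 7.21 ± 0.06 in CL6G45, 7.35 ± 0.10 in CL6G52, 7.29 ± 0.17 in P19CL6 and 7.53 ± 0.25 in P19. Their arrays ranged from 7.02 in P19CL6 to 7.91 in P19. In the order P19, CL6G36, CL6G52, P19CL6 and CL6G45, neighbours overlapped and were never further apart than their pooled SD.

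The brightest Cep41 probe set, 1434576_at on MOE430B, gave the same picture from separate hybridizations. It read 6.57, 6.33, 6.36, 6.60 and 6.14 in CL6G26, against 8.48, 8.41, 8.37, 8.48 and 8.32 in P19CL6. The CL6G26 mean of 6.40 ± 0.19 was 4.04-fold below the P19CL6 mean of 8.41 ± 0.07 (a log2 difference of -2.01 ± 0.10). This probe set also set CL6G45 slightly below P19CL6, at 8.25, 7.93, 8.07, 8.03 and 8.26, a difference of -0.30 ± 0.10 with a gap of 0.06 between the nearest arrays; the MOE430A probe set overlapped there (-0.08 ± 0.14). CL6G36 differed by -0.06, CL6G52 by -0.06 and P19CL6 from P19 by -0.17 on it, each with an SE of 0.10 and overlapping arrays.

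A dimmer probe set, 1443792_at on MOE430B, read 4.07, 4.05, 3.46, 4.21 and 3.95 in CL6G26, of which only replicate 4 lay above the floor of 4.15. It read 5.23, 5.46, 4.62, 4.67 and 5.30 in P19CL6, all above the floor, and the difference was -1.11 ± 0.21 (2.15-fold lower). The signal in CL6G26 was thus mostly below the floor on this probe set. It was also the only Cep41 probe set with P19CL6 free of overlap below P19, by 0.70 ± 0.21 on the log2 scale with a gap of 0.10, whereas the brighter ones differed by 0.24 and 0.17 in the same direction with overlap. The fourth probe set, 1445416_at, lay above the floor on 1 of 30 arrays, with strain means between 1.34 and 2.46, and was not tested.

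**Figure D2:**
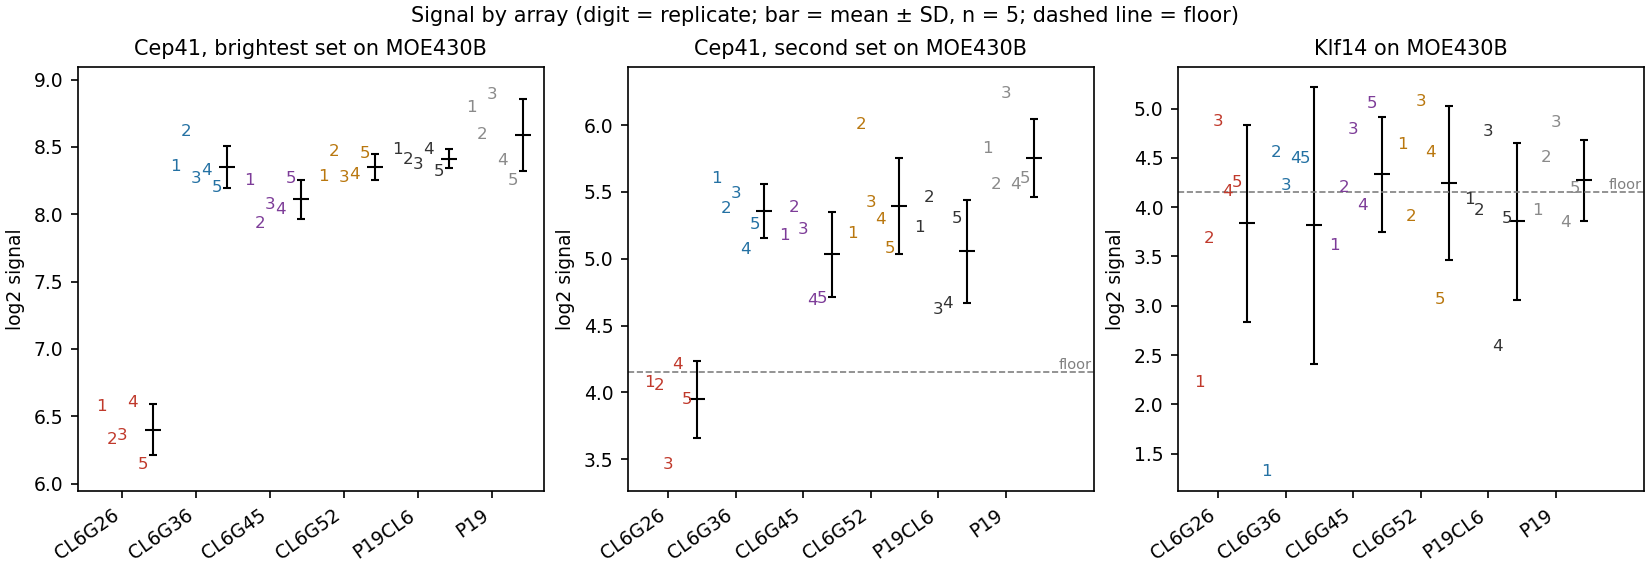
Log2 signal on each MOE430B array by strain for the 2 measurable Cep41 probe sets and for Klf14; digits are replicates, bars the mean ± SD of 5 arrays and the dashed line the floor of 4.15. Cep41 of CL6G26 lies below all other strains in both, and Klf14 straddles the floor in every strain.

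On the MOE430A arrays CL6G26 was thus the one strain with high Mest and low Cep41. Within the other 5 strains, Mest spanned 9.21 to 10.24 while Cep41 stayed between 7.02 and 7.91. CL6G36 and CL6G45, dimmest for Mest, had Cep41 differences of 0.16 ± 0.14 and -0.08 ± 0.14 from P19CL6, both with overlap. On this array type CL6G26 had both genes free of overlap with P19CL6, and in the other 3 sublines at least 1 of them overlapped; whether the sublines differ from each other in this was not tested.

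**Figure D3:**
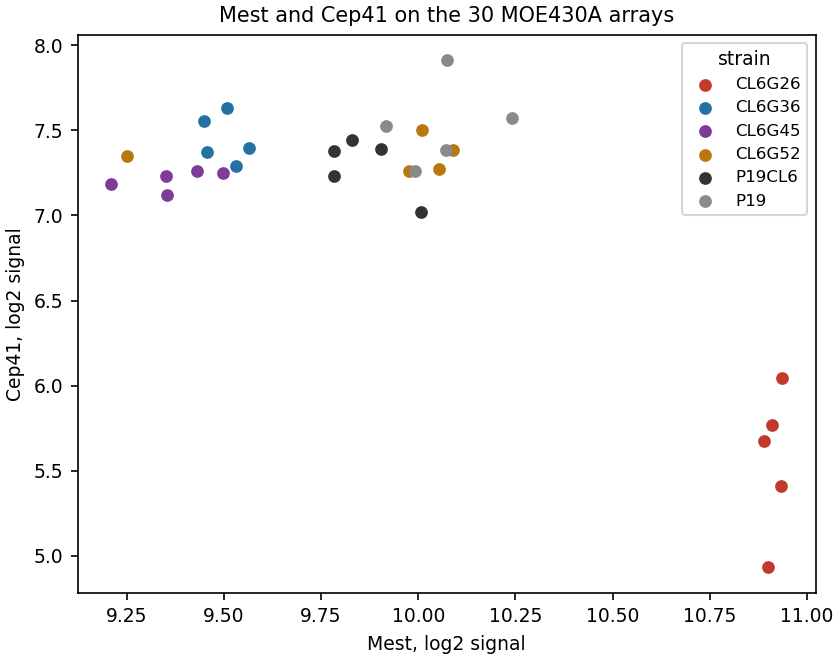
Mest against Cep41, log2 signal, on the 30 MOE430A arrays, coloured by strain. The 5 CL6G26 arrays lie alone at Mest from 10.89 to 10.94 and Cep41 from 4.93 to 6.04, and along the Mest axis the other 25 arrays spread out at Cep41 from 7.02 to 7.91.

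Of the 5 comparisons made, Copg2 differed most in P19CL6 minus P19, and its CL6G26 arrays overlapped those of P19CL6. Its probe set, 1448761_a_at on MOE430A, read 7.58, 7.59, 7.41, 7.50 and 7.52 in P19CL6, against 6.90, 6.73, 6.90, 7.31 and 7.37 in P19. The P19CL6 mean of 7.52 ± 0.07 was 1.39-fold above the P19 mean of 7.04 ± 0.28, a log2 difference of 0.48 ± 0.12. The gap between the strains was 0.04, because P19 replicates 4 and 5, which resemble P19CL6 over all genes, lay just below it; without them the difference was 0.68.

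Among the sublines, Copg2 was higher in CL6G45 at 7.73, 7.97, 7.74, 7.72 and 7.78, all above P19CL6, by 0.27 ± 0.12 on the log2 scale. CL6G36 read 7.54, 7.81, 7.69, 8.07 and 7.89, and its difference of 0.28 ± 0.12 came with an overlap at replicate 1. CL6G26 read 7.39, 7.48, 7.18, 7.47 and 7.20, a difference of -0.17 ± 0.12, and CL6G52 read 7.68, 7.25, 7.51, 7.49 and 7.14, a difference of -0.11 ± 0.12, both overlapping P19CL6. The order was CL6G36, CL6G45, P19CL6, CL6G52, CL6G26 and P19, and the step from CL6G45 to P19CL6 was the only one without overlap.

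Klf14 was read near the limit of the array. Its probe set, 1457397_at on MOE430B, lay above the floor on 17 of 30 arrays, at most 4 of 5 in any strain (CL6G36) and at least 1 (P19CL6). Strain means ran from 3.82 ± 1.40 in CL6G36 to 4.33 ± 0.58 in CL6G45, and every strain overlapped every other. The differences from P19CL6 were -0.02 in CL6G26, -0.04 in CL6G36, 0.48 in CL6G45 and 0.39 in CL6G52, and P19CL6 lay 0.42 below P19, each with an SE of 0.52. Differences of this size were not detectable here, and no order of the strains can be read.

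Over all 13181 genes the counts were as follows, and since the 4 genes were chosen with these differences known, nothing is read from theirs. In CL6G26 minus P19CL6, 2 of the 4 genes, Mest and Cep41, had an adjusted p under 0.05 and at least a 2-fold difference, which 0.258% of all genes had. Regardless of size, 1.24% of all genes passed the adjusted p there, 0.417% higher and 0.819% lower. The arrays of Mest and Cep41 were free of overlap, as were those of 4.13% of all genes. In CL6G36, 1 gene (Mest) passed without reaching 2-fold; 13.6% of all genes passed (6.85% higher and 6.71% lower), 1.46% at 2-fold or more, and 12.3% were free of overlap. In CL6G45, 1 gene (Mest) passed without reaching 2-fold, and Mest and Copg2 were free of overlap. Of all genes 13.2% passed there (6.55% higher and 6.68% lower), 1.37% at 2-fold or more, and 13.7% were free of overlap. In CL6G52 none of the 4 passed or was free of overlap; 3.19% of all genes passed (1.39% higher and 1.8% lower), 0.501% at 2-fold or more, and 4.89% were free of overlap. In P19CL6 minus P19, 1 gene (Copg2) passed without reaching 2-fold and was free of overlap; 4.45% of all genes passed (2.57% higher and 1.88% lower), 0.652% at 2-fold or more, and 2.23% were free of overlap.

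The genes on either side were tested, since their own values were not used to choose the 4. The 15 nearest genes on each side in RefSeq order were listed, leaving out genes without a probe set of that symbol on either array type. Of these, 22 of 30 had a measurable probe set and none met the 2-fold call rule in any comparison (limma, adjusted over all probe sets of an array type). The nearest measurable neighbours, Cpa4 and Ssmem1 on the Cep41 side and Mkln1 and Podxl on the Klf14 side, included 1 gene that passed, Podxl. Cpa4 lay near the floor (above it on 2 of 5 P19CL6 arrays, SE 0.58), as did Plxna4os1, Lrguk and Akr1b10 (SE 0.50 to 0.65). Ssmem1 was also dim (SE 0.32). Only large differences in these genes would have passed, so the lack of a pass says little about them. Cpa1, Cpa5, Lncpint and Mkln1os, which lie nearer, were not tested here.

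In CL6G26 minus P19CL6, 2 of the 22 neighbours fell and none rose, against 1.24% of all genes passing in either direction. Podxl, a sialomucin of the cell surface that is abundant on pluripotent cells, averaged 8.77 ± 0.15 in CL6G26 and 9.18 ± 0.24 in P19CL6 (a log2 difference of -0.41 ± 0.09, adjusted p = 0.00582), with overlapping arrays, and was no longer past the threshold in 3 of 21 other settings. Cald1, which encodes the actin-binding protein caldesmon and is the outermost gene on the right, averaged 8.17 ± 0.16 in CL6G26 and 8.90 ± 0.23 in P19CL6 (-0.73 ± 0.14, adjusted p = 0.00154), with no overlap. The other 20 were not past the threshold. Of the 22, 4 had an unadjusted p under 0.05 (limma), Podxl and Cald1 among them. Named after their values were seen, Zc3hc1 differed by 0.25 ± 0.09 and Exoc4 by -0.27 ± 0.11, the latter with no overlap. Mkln1 differed by -0.17 ± 0.10 and Tmem209 by -0.16 ± 0.11. The median over the 22 neighbours was -0.11 and over all genes -0.01, and the neighbours ranged from -0.73 (Cald1) to 0.42 (Ssmem1, SE 0.32). Mest's 1.05 and Cep41's -1.73 lay outside this range, from which nothing is read, since both were chosen for their differences and the neighbours were not.

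In CL6G36 minus P19CL6, Ube2h, a ubiquitin-conjugating enzyme, rose by 0.29 ± 0.09 (adjusted p = 0.0167) and Smo, the signal transducer of the Hedgehog pathway, fell by 0.42 ± 0.11 on the log2 scale (adjusted p = 0.00795). In CL6G45, Ahcyl2, an adenosylhomocysteinase-like protein, rose by 0.45 ± 0.13 (adjusted p = 0.0160), Smo fell by 0.53 ± 0.11 (adjusted p = 0.00104) and Cald1 fell by 0.68 ± 0.14 (adjusted p = 0.000616). These 2 and 3 of 22 genes stand beside 13.6% and 13.2% of all genes in the same comparisons. Ahcyl2 was not past the threshold in 4 of 21 other settings, among them the removal of P19CL6 replicate 1 or 3. Ube2h was not in 2 of 21. In P19CL6 minus P19, Bpgm, an enzyme that makes bisphosphoglycerate, fell by 0.54 ± 0.15 (adjusted p = 0.0348), which was past the threshold in 11 of 22 other settings. In CL6G52 no neighbour passed (limma; 3 of 22 at an unadjusted p under 0.05). With the deposited scaling, no neighbour passed in any of the 5 comparisons.

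**Figure D4:**
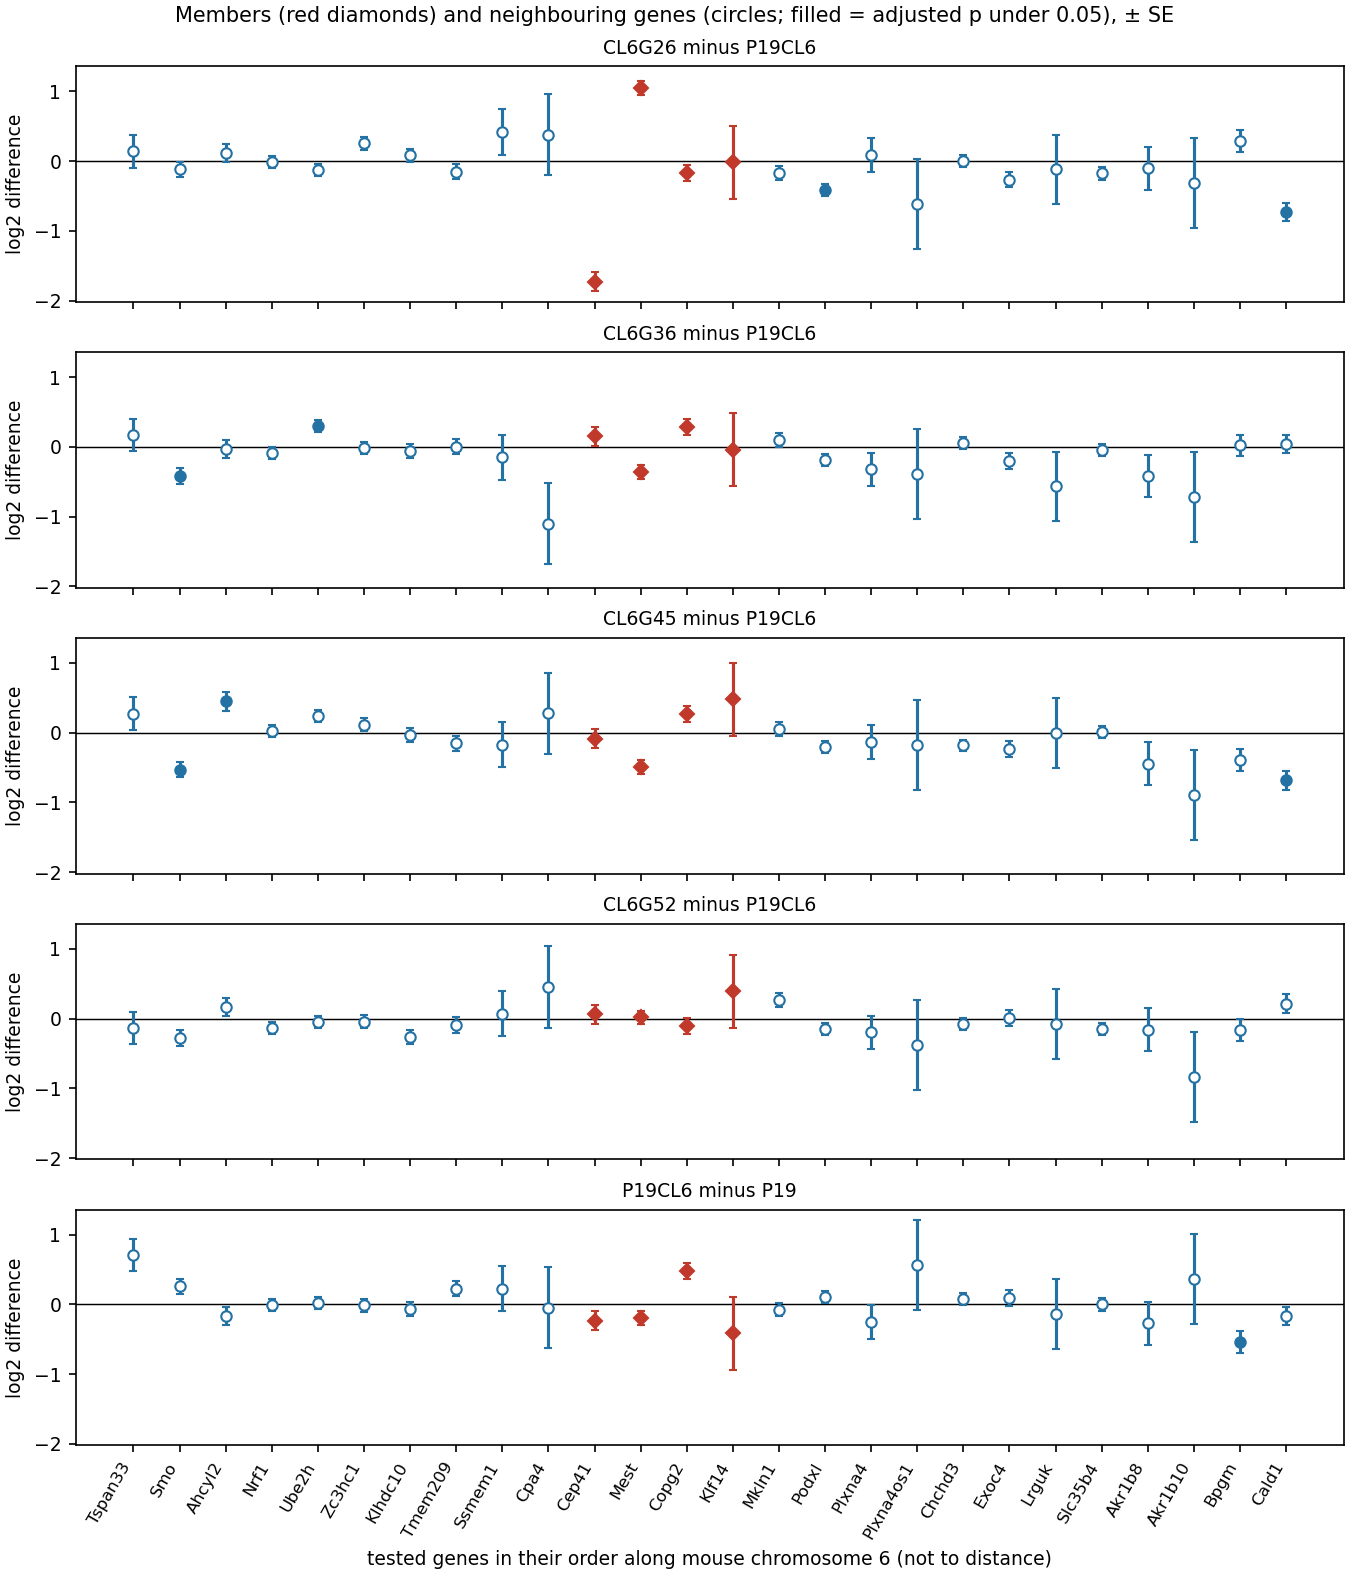
Log2 difference ± SE for each measurable gene in RefSeq order along chromosome 6, one panel per comparison; red diamonds are Cep41, Mest, Copg2 and Klf14, and filled circles are neighbours with an adjusted p under 0.05. In CL6G26 Cep41 (-1.73) and Mest (1.05) stand beside each other with opposite signs, and the neighbours range from -0.73 to 0.42. Cep41 and Mest were chosen for their differences and the neighbours were not.

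Copg2 is one of several coatomer genes, and 9 others were measured, among them Arf1, the small GTPase that recruits the coat. In CL6G36 minus P19CL6, 6 of 9 rose and none fell, where 6.85% of all genes rose, with a median of 0.30 against -0.00 over all genes. They were Copz1 (0.54 ± 0.06, adjusted p = 1.99e-07), Copa (0.48 ± 0.08), Copg1 (0.44 ± 0.07), Copb1 (0.37 ± 0.07), Cope (0.30 ± 0.09) and Copb2 (0.18 ± 0.06), named after their values were seen since none reached 2-fold. Copg1 encodes the other gamma subunit, the paralogue of Copg2, and averaged 8.67 ± 0.08 in CL6G36 and 8.23 ± 0.05 in P19CL6 (adjusted p = 3.78e-05). In CL6G45, 3 of 9 rose and none fell, Cope (0.42 ± 0.09), Copa (0.35 ± 0.08) and Copb1 (0.27 ± 0.07), where 6.55% of all genes rose, with a median of 0.21 against 0.00 over all genes. Copg1 (0.12 ± 0.07) and Copz1 (-0.12 ± 0.06) did not pass there. In CL6G26, CL6G52 and P19CL6 minus P19 none of the 9 passed (limma; 1, 0 and 0 at an unadjusted p under 0.05), and Copg1 differed by 0.07 ± 0.07 between P19CL6 and P19, where the Copg2 difference was 0.48. With the deposited scaling no coatomer gene passed in CL6G36 or CL6G45, though the 6 and the 3 kept their direction in each setting run; Copb2 was not past the threshold in 8 of 21 settings.

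**Figure D5:**
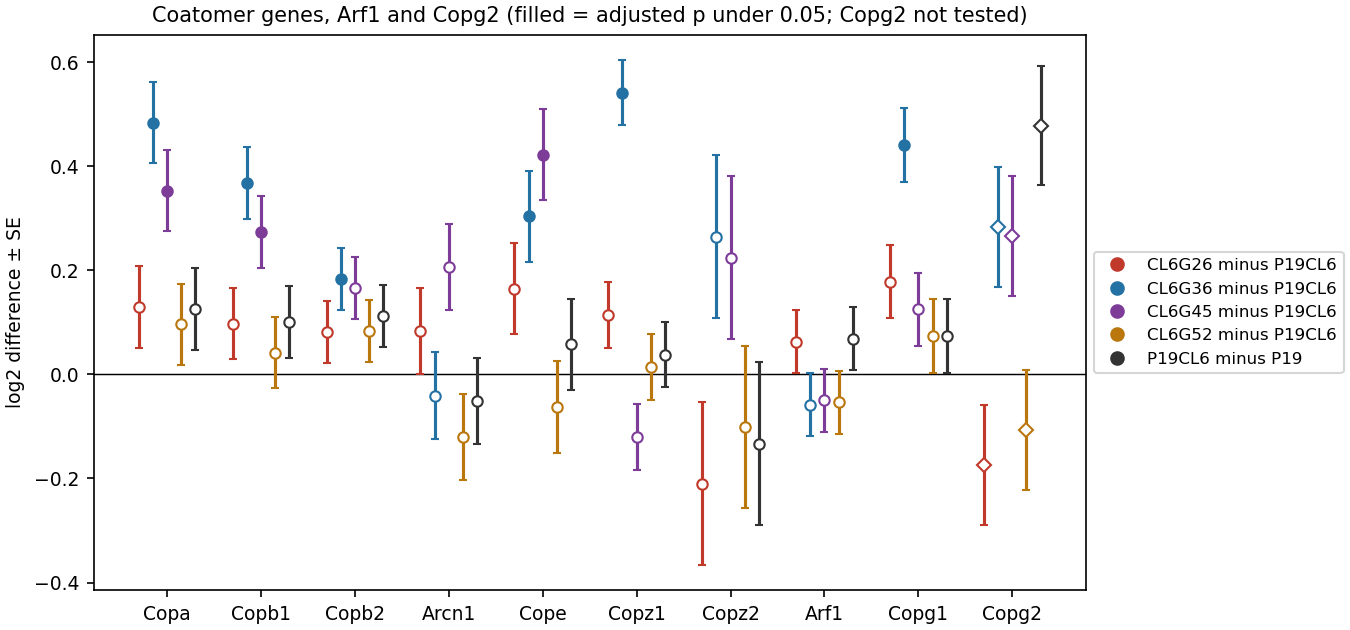
Log2 difference ± SE of coatomer genes, Arf1 and Copg2 in the 5 comparisons; filled circles have an adjusted p under 0.05 and Copg2 (diamonds) is given without a test. Most coatomer genes of CL6G36 lie above 0, up to 0.54 for Copz1, and Copg2 is highest in P19CL6 minus P19 at 0.48.

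Of the 15 measurable genes of tubulin glutamylation and Joubert syndrome, the setting of Cep41, none passed in any comparison (limma; 0 to 3 at an unadjusted p under 0.05), including CL6G26, where Cep41 was lowest and the list had a median of -0.09. Among the 14 other measurable Klf genes, none passed in CL6G26 or CL6G52, 3 rose in CL6G36, 5 rose in CL6G45 and Klf5 fell in P19CL6 minus P19, beside 6.85% and 6.55% of all genes that rose and 1.88% that fell in these comparisons. With the deposited scaling these counts were 0, 2 and 0, and Klf5 was not past the threshold in 8 of 22 settings. Klf11 (0.68 in CL6G36 and 0.56 in CL6G45) and Klf6 (0.54 and 0.61) were examples, named after their values were seen. Klf11 was not past the threshold in 1 of 21 other settings in CL6G36 and 6 of 21 in CL6G45.

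Mest is a paternally expressed gene, and of the 14 other measurable paternally expressed genes none rose in CL6G26. There 4 fell, beside 0.819% of all genes: Zdbf2 by 0.96, Peg3 by 0.84, Sgce by 0.82 and Igf2 by 0.74 on the log2 scale. These 4 were named after their values were seen, and their highest adjusted p was 0.00340 (limma). Peg3, a zinc finger gene, averaged 9.14 ± 0.13 in CL6G26 and 9.98 ± 0.25 in P19CL6. With the deposited scaling only Zdbf2 of the 4 passed (adjusted p = 0.00218). In CL6G36 1 rose and 6 fell, in CL6G45 6 fell and in CL6G52 1 rose and 2 fell, and Peg3 and Zdbf2 were among those that fell in all 4 sublines. Of all genes, 13.6% passed in CL6G36, 13.2% in CL6G45 and 3.19% in CL6G52, and with the deposited scaling the counts of 7, 6 and 3 became 1, 4 and 0. The called genes of these were Peg3 (-1.28 in CL6G36 and -1.12 in CL6G45), Peg10 (below the floor on all CL6G36 and CL6G45 arrays), Zdbf2 (-1.18 in CL6G45) and Plagl1 (1.17 in CL6G36 and 1.31 in CL6G52). Plagl1 was not past the threshold in 4 of 21 other settings in CL6G36 and 6 of 21 in CL6G52, which include the removal of CL6G52 replicate 2, 3, 4 or 5, and Peg10 was not in 8 of 20 in CL6G36. In CL6G36 and CL6G45 Mest was thus lower together with Peg3, Sgce and Zdbf2, and in CL6G26 it was higher where they fell. These 3 were named after their values were seen. The 14 genes ranged from -1.28 to 1.17 in CL6G36 (median -0.08) and from -1.68 to 0.83 in CL6G45 (median -0.30). In CL6G26 they ranged from -1.03 to 0.15 (median -0.15). The 4 subline differences share the P19CL6 arrays.

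Of the 10 measurable maternally expressed genes, none passed in CL6G26 (limma; 0 at an unadjusted p under 0.05), 2 rose and 1 fell in CL6G36, 1 rose and 1 fell in CL6G45 and 2 rose in CL6G52, beside the same 13.6%, 13.2% and 3.19% of all genes. With the deposited scaling 3, 1 and 1 passed, and Ube3a, one of the 2 in CL6G52, was not past the threshold in 8 of 21 settings. Calcr, the calcitonin receptor gene, was called in those 3 sublines, at 1.86, 1.82 and 1.21, and stayed past the threshold in all 21 other settings of each. In P19CL6 minus P19, 1 rose and 3 fell, beside 2.57% of all genes that rose and 1.88% that fell. Grb10 (-1.02) and Meg3 were called, the last with no P19CL6 array and 4 of 5 P19 arrays above the floor. Both calls were lost when P19 replicate 1, 2 or 3 was left out, with the 2 strains alone and without P19CL6 replicates 1 and 2. Grb10 was also lost with the deposited scaling. Over the 22 other settings the adjusted p ran from 7.92e-08 to 0.198 for Grb10 and from 1.27e-10 to 0.194 for Meg3 (limma). The differences ran from -1.65 to -0.76 for Grb10 and from -4.24 to -1.97 for Meg3. Of 10 measurable genes from a list of imprint maintenance and DNA methylation genes, on which Tet1, Tet2 and Tet3 also stood, none passed in CL6G26 (1 at an unadjusted p under 0.05). In each of CL6G36, CL6G45 and CL6G52, 2 of them passed, beside the same 13.6%, 13.2% and 3.19% of all genes. With the deposited scaling, 1 passed in each. Dnmt3a, a DNA methyltransferase of imprint establishment, rose by 1.10 in CL6G36, 0.75 in CL6G45 and 1.02 in CL6G52. The others, named after their values were seen, were Uhrf1 (-0.29 in CL6G36), Dnmt3b (0.39 in CL6G45) and Zfp445 (0.30 in CL6G52). Zfp445 was not past the threshold in 7 of 21 other settings, among them the mean of the probe sets of a gene. Its difference ran from -0.19 to 0.36 over these settings, so its direction was not kept. Dnmt3b was not past the threshold in 2 of 21 and Uhrf1 in 1 of 21. Zfp57, whose hexamer is marked above, did not pass in any comparison and was above the floor on at most 2 of 5 arrays of a strain.

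Genes with patterns most like those of the 4 were listed by Pearson r over the 30 arrays of a type, as a description, since arrays of a strain and of a normalization share much. For Mest, the highest of 8905 genes were Irx5 (0.87), Hmgxb4 (0.87) and Vangl1 (0.86) and the lowest Lrrc61 (-0.92), Cbr4 (-0.90) and Igf2bp3 (-0.87). Irx5, a homeobox gene, averaged 6.81 ± 0.18 in CL6G26 and 4.87 ± 0.41 in P19CL6, and was below the MOE430A floor of 4.61 on every CL6G36, CL6G45 and CL6G52 array. For Cep41, the highest were Plin2 (0.90), Lpl (0.86) and Acyp2 (0.85) and the lowest Ret (-0.90), Greb1 (-0.89) and Irx5 (-0.80). Plin2, a lipid droplet protein, lay below the floor on every CL6G26 array and averaged 6.39 ± 0.15 in P19CL6, and Ret, a receptor tyrosine kinase, averaged 7.04 ± 0.10 in CL6G26 and 5.35 ± 0.44 in P19CL6. Irx5 stood in the list of both genes, on opposite sides.

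These lists for Mest and Cep41 rest on CL6G26. Over the 25 arrays without it, a setting chosen after seeing the data, the highest for Mest were Arpc5 (0.94), Nop10 and Jpt1 and the lowest Aldoc (-0.95), and for Cep41 no r exceeded 0.78, that of Ddx41. For Copg2, the highest were Stc2 (0.91), Snhg6 (0.89) and Nampt (0.89) and the lowest Rhno1 (-0.91), Taf5l (-0.90) and Arpc4 (-0.90). Stc2, which encodes a secreted glycoprotein, averaged 8.13 ± 0.41 in P19CL6 and 6.79 ± 0.96 in P19. Stc2, Rhno1 and Taf5l stayed among the 3 nearest on their side without CL6G26. For Klf14, no r exceeded 0.67 (Mtarc1), which at this signal is weak.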

How the data were processed

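RNA of 6 strains was hybridized to MOE430A and MOE430B arrays, 5 replicates each. Whether these came from separate cultures is not in the labels, and p-values then measure only the spread between the 5, which may be technical. As deposited, the values are linear signal intensities per probe set, made with GCOS per the submitters' processing notes; its version and scaling target are not given in the sources used here. From them, arrays of each type were quantile normalized, controls were then left out, any signal below 1 was raised to 1, and values were put on the log2 scale. The floor was the 40th percentile of each array on MOE430A (log2 4.61) and the 60th on MOE430B (4.15), and probe sets above it on at least 5 of 30 arrays were tested (15068 and 12131). A gene was read from its brightest probe set, x_at only where it had no other, MOE430A before MOE430B. Tests were two-sided, with limma 3.58.1 in R 4.3.3: a group-means model over 30 arrays, eBayes with trend, 24 residual degrees of freedom, Benjamini-Hochberg adjustment over the probe sets of a type. A gene passed at an adjusted p under 0.05 and was called if it also differed at least 2-fold; SE is that of the fit. The procedure was tested on simulated data. The 4 genes, the gene lists, the tests and the alternatives were chosen with earlier results of these data known. Named by rule were the 4 genes, the neighbours that passed, up to 3 called genes of each list and the 3 highest and 3 lowest r for each of the 4; others are said to be named after their values were seen. Gene symbols came from the platform annotation, and gene order and promoters from RefSeq (GRCm38.p6). On MOE430A no pairing of replicate numbers across strains was seen: of the 15 pairs of arrays that share a number, at most 1 correlated above 0.1 for any number. On MOE430B 0 did, but arrays of the same strain also mostly correlated below 0.1 there (0.181 at best, within P19). The MOE430B count therefore cannot tell whether the numbers pair arrays. Alternatives were other scalings, low-value rules, filters, fits and left-out arrays.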

Additional observations from a re-analysis of the deposited data

Results flagged for a closer look

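In Mest, CL6G52 replicate 1 (9.251) lay far below the other 4 CL6G52 arrays, which ran from 9.98 to 10.09; the same array resembles CL6G45 over all genes on both array types. In Copg2, CL6G45 replicate 2 (7.966) lay above the other 4, which ran from 7.72 to 7.78. In Klf14, CL6G36 replicate 1 (1.316) lay below the floor and far below the other 4, which ran from 4.22 to 4.56. These are 3 of 42 groups of 5 arrays examined for a single distant value by Dixon's criterion, and chance marks about 1 group in 20. Mest was higher than P19CL6 in every CL6G26 array and lower in every CL6G36 and CL6G45 array, so that the differences from P19CL6 lay 1.41 apart between CL6G26 and CL6G36 and 1.54 apart between CL6G26 and CL6G45 (log2); these differences between sublines were not tested, since Mest was chosen for its pattern.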

How the results depend on the processing

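The MOE430A differences free of overlap (Mest in CL6G26, CL6G36 and CL6G45, Cep41 in CL6G26, Copg2 in CL6G45 and in P19CL6 minus P19) kept their direction in every setting run, Cep41 between -1.85 and -1.44. With the deposited scaling, the median of all MOE430A genes shifted by 0.18 in CL6G26 minus P19CL6 and by 0.11 in CL6G45 minus P19CL6; there Mest in CL6G26 was 1.26 and Copg2 0.026 in CL6G26 and 0.36 in CL6G45, and relative to the median of all genes they were 1.08, -0.16 and 0.26, against 1.06, -0.17 and 0.26 with quantile normalization. With arrays scaled to the same median, Mest in CL6G45 was -0.60. The deposited scaling left 0 neighbours past the test in P19CL6 minus P19, CL6G26, CL6G36 and CL6G45, lowered the 56 passes of list genes over the 5 comparisons to 17, left 0 coatomer genes in CL6G36 and CL6G45, and kept 12 of the 24 genes of like pattern. Neighbours past the test in P19CL6 minus P19 (1) became 0 with no filter, with the 2 strains alone and without P19CL6 replicates 1 and 2, 2 without P19 replicates 4 and 5, and 0 to 3 when 1 array was left out (3 without P19 replicate 4). In CL6G26 (2) they became 1 with the 2 strains alone and with the mean of the probe sets of a gene. In CL6G45 (3) they became 5 with median scaling, with the 2 strains alone and with the mean of the probe sets, and 2 to 5 when 1 array was left out; with the 2 strains alone, coatomer genes there became 5. In CL6G52 (0) they became 1 without P19CL6 replicates 1 and 2, and 0 to 1 when 1 array was left out (1 without CL6G52 replicate 1). Of the 24 genes of like pattern, 2 remained over the 6 strain means and 6 without the CL6G26 arrays, a setting chosen after seeing the data. With the replicate number as a block, neighbours in P19CL6 minus P19 became 2 and list genes 55. The differences themselves cannot move in this setting, since every replicate number occurs in each strain (Mest 1.05 in CL6G26). Signal near the floor limits Klf14 and 1443792_at.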
